A study of Homo sapiens with 6 samples.

Results

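The clustered replication-dependent histone genes were followed in LP-1, a cell line of human multiple myeloma with a translocation that joins NSD2 to the immunoglobulin heavy chain locus. They were taken as every gene of the deposited gene table whose symbol begins with HIST1H, HIST2H, HIST3H or HIST4H, which gave 63 of 17579 genes. One group of 3 libraries came from LP-1 cells infected with virus carrying a guide that targets AURKA, which encodes Aurora A, a kinase of mitosis, and is labelled Aurora A-KO. The other 3 came from cells given a non-targeting guide in the same way and served as the control. Both groups were cultured in medium with fetal bovine serum. Whether each arm was a pool or a clone, the time from infection to harvest, and whether replicates were separate cultures were not stated in the labels. The p-values therefore rest on the spread between these libraries alone, which may be technical. The control libraries are called C1 to C3 and the AURKA-guide libraries A1 to A3.

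Histone proteins package DNA: H2A, H2B, H3 and H4 form the core of the nucleosome, and the linker histone H1 binds where DNA enters and leaves it. The genes for the replication-dependent forms lie together in clusters, lack introns in their usual form and are transcribed mainly in S phase, when new DNA has to be packaged. Their mRNAs usually end in a stem-loop that the protein SLBP binds, in place of a poly(A) tail. Several of these genes also make a longer polyadenylated mRNA, which cells that have stopped dividing can keep. Methods that select poly(A) RNA recover the stem-loop mRNAs only in part, and how RNA was selected for these libraries is not given in the sources used here. A change in the amount of mRNA per cell cannot be told apart in bulk RNA from a change in the share of cells that make it.

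The 63 genes comprised 5 of class H1, 15 of H2A, 16 of H2B, 13 of H3 and 14 of H4. By cluster, 47 belonged to HIST1, 12 to HIST2, 3 to HIST3 and 1 to HIST4. Total expected counts lay between 17724174 and 18523594 per library. AURKA itself (gene ID 6790) was at 189, 192 and 195 CPM, the normalised count per library size, in C1 to C3 and at 113, 119 and 113 CPM in A1 to A3. It fell by 0.74 ± 0.05 (SE, n = 3 per group) on the log2 scale to 0.599 of the control level (adjusted p = 6.15e-07, edgeR quasi-likelihood test). The 8 plasma cell markers summed to between 3492 and 3596 CPM in the controls and between 3415 and 3455 CPM with the AURKA guide. Among them CD38 was called higher, from 210 to 274 CPM (0.38 ± 0.05, adjusted p = 0.000333), and the others were not called. The median log2 fold change of the 8 was -0.108. At an unadjusted p under 0.05 in edgeR, 1 was higher and 3 were lower, against 7.62% and 8.61% of all tested genes. The marker with the fewest reads averaged 0.733 CPM. FGFR3, which the translocation of this line also activates, was called lower, from 747 to 633 CPM (-0.24 ± 0.06, adjusted p = 0.0394), and in fits without C1, C2, A1, A2 or A3 its adjusted p was between 0.0693 and 0.274. The 4 T and NK cell markers in the table summed to between 0.23 and 0.38 CPM in the controls and between 0.38 and 0.49 CPM with the guide, the 4 myeloid markers to between 5.05 and 5.86 CPM and the 8 epithelial and stromal markers to between 8.63 and 10.8 CPM, with overlapping groups in the last 2 lists.

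The 3′ stem-loop typical of these mRNAs is shown here because its presence differs between mRNA forms of 1 gene and its stem differs between class H4 and the other classes that hold it. The letters of its consensus (6 on the left of the stem, 4 in the loop and 6 on the right, with either pyrimidine or either purine in the middle of each side) were searched in the GENCODE release 29 transcripts of each gene. It was found in 30 of the 63 genes (47.6%), none of them of class H1, and in 44 of 16859 genes of the table with a coding transcript (0.261%). In 29 of the other genes, HIST1H1A, HIST1H1C and HIST1H1D among them, the GENCODE transcript stops at the coding part, so the end of the mRNA could not be read there. The remaining 4, HIST1H1E, HIST1H1T, HIST1H2BJ and HIST1H4C, have bases beyond the coding part and no match. Transcripts of HIST1H1E and HIST1H1T have 754 and 718 bases, of which 657 and 621 are coding. The search therefore does not show that H1 mRNAs lack the stem-loop. Written as DNA, with the paired bases in capitals and the loop in lower case, the 6 forms were as follows.
15 genes, among them HIST2H2BE, HIST1H2AC, HIST2H2AA3 and HIST2H2AA4: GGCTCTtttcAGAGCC
5 genes, among them HIST1H2BC, HIST1H2BD and HIST1H3G: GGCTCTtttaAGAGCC
5 genes, all of class H4, among them HIST1H4H: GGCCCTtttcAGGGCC
3 genes, HIST1H4I, HIST2H4A and HIST2H4B: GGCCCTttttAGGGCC
1 gene, HIST1H2AG: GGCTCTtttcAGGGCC
1 gene, HIST1H3E: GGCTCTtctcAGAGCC
Both H4 forms have a stem that was not found in the genes of the other classes. The HIST1H2AG form has the left side of the most common stem and the right side of the H4 stem.

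Many H2A and H2B genes lie back to back and are read in opposite directions from one short stretch. RefSeq gives a promoter window for 59 of the 63 genes, and pairs with the others, among them HIST1H2AH, could not be found. Among the 59 genes, 11 pairs of neighbours were read in opposite directions with start sites at most 1000 bases apart. HIST1H2BF is in 2 of them, with HIST1H3D and with HIST1H2AD, over the same stretch, and the pair HIST1H3F and HIST1H2BH joins an H3 to an H2B gene with starts 979 bases apart. The other 8 pairs and the pair with HIST1H2AD are of an H2A and an H2B gene. The stretches between the start sites are shown for the 3 pairs in which at least 1 gene passed the test below, and the 150 bases before the start for the 2 genes with the most reads. Sequences are from RefSeq (GRCh38.p14). Capitals mark the CCAAT box, the TATA box in its form TATAAA and the octamer ATTTGCAT, each on either strand.
HIST1H2BJ and HIST1H2AG, chr6:27132796-27133042, plus strand: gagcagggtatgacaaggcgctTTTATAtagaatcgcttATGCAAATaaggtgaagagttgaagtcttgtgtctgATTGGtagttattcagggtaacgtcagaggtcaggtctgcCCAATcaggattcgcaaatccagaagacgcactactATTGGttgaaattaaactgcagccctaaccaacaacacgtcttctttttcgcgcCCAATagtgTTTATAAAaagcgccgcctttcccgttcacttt
HIST1H2BC and HIST1H2AC, chr6:26123927-26124171, plus strand: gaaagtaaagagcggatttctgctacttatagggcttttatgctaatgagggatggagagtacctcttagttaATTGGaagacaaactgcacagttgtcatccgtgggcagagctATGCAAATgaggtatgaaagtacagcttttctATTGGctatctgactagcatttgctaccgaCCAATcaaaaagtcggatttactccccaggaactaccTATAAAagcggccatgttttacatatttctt
HIST2H2BE and HIST2H2AC, chr1:149886683-149886917, plus strand: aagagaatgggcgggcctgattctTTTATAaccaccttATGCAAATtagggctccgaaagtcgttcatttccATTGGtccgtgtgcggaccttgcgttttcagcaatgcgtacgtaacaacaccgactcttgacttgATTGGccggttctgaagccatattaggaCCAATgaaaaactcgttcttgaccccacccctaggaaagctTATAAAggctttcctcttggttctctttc
HIST1H2BK, chr6:27146859-27147008, minus strand: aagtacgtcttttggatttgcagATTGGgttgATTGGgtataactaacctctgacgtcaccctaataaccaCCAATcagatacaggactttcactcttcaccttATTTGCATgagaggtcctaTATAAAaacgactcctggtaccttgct
HIST1H1C, chr6:26056471-26056620, minus strand: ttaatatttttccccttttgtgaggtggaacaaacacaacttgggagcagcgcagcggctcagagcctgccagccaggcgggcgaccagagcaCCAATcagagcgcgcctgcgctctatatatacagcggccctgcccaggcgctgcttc
Each of the 3 shared stretches held 1 octamer, between 3 and 4 CCAAT letters and between 1 and 3 TATAAA letters, of which 2 overlap on opposite strands before HIST1H2AG. The HIST1H1C stretch held 1 CCAAT and neither of the other motifs.

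Over the windows from 250 bases before to 50 after the start, which RefSeq gives for 59 of the 63 genes, CCAAT was present in 83.1% of the histone genes against 39.7% of all 27305 genes with a window. It was in every window of classes H1, H2A, H2B and H3 and in 2 of 12 of class H4 (16.7%). TATAAA was present in 41 of 59 windows (69.5%) against 3819 of 27305. The octamer was present in 37.3% against 2.2%: 12 of 16 H2B genes (75.0%), 9 of 14 H2A genes (64.3%), 1 of 12 H3 genes (8.3%) and none of the 5 H1 or 12 H4 genes. ATTTGCATA, which contains the octamer, was in 27.1% of the histone genes and 0.8% of all genes. Windows of divergent neighbours overlap, so 1 motif can be counted for both genes of a pair, and the class shares are not shares of separate sites. The octamer of the 1 H3 gene, HIST1H3D, lies in the stretch shared with the H2B gene HIST1H2BF. These matches describe the letters in the windows only.

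Reads were very unequally spread over the family. Of the 63 genes, 33 had enough reads to be tested, and 30 did not: 3 of class H1, 7 of H2A, 7 of H2B, 5 of H3 and 8 of H4, the largest of which averaged 0.489 CPM. HIST1H2AJ and HIST1H2AL had no read in any library. The untested gene with the most reads was HIST1H2BL, at 0.440, 0.317 and 0.123 CPM in the controls and 0.485, 0.454 and 1.12 CPM with the AURKA guide. HIST1H4J had all of its 13.0 counts in C2. The test filter asks for a minimum level in 3 libraries in any group, so the tested genes are not a sample of the family, and counts over them are read only beside the summed levels, which use all 63.

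With the AURKA guide, 12 of the 33 tested histone genes were called higher and 0 lower (edgeR quasi-likelihood test, Benjamini-Hochberg adjusted p under 0.05 over 13138 genes). Among all tested genes 2.12% were called, 0.989% higher and 1.13% lower. Without adjustment, 17 of the 33 histone genes had a p under 0.05 and were higher, and 0 were lower, against 7.62% and 8.61% of all tested genes. The DESeq2 Wald test called 9 of them higher and 0 lower. In 18 of the 33 all 3 AURKA-guide libraries were above all 3 controls, and in 0 were all below, against 10.5% and 10.3% of all tested genes. The median log2 fold change of the 33 was 0.37 and that of all tested genes -9.41e-05, and 31 of the 33 values were above 0. The 33 include HIST2H2AA3 and HIST2H2AA4, HIST2H4A and HIST2H4B, and HIST2H3A and HIST2H3C. These are pairs of copies with identical counts, so counts over tested genes, here and below, hold each such measurement as 2 genes. The called genes were 1 of 2 tested in H1, 4 of 8 in H2A, 5 of 9 in H2B, 1 of 8 in H3 and 1 of 6 in H4. By cluster they were 9 of 23 tested in HIST1 and 3 of 10 in HIST2. Of the called genes 5 remained called in each of the 6 fits that leave out 1 library: HIST1H1C, HIST1H2BK, HIST2H2BE, HIST1H2AC and HIST1H2BJ. Without A2 only 6 histone genes were called, and without C3 14. Calls over all tested genes moved as well, from 130 higher and 149 lower with all libraries. They were 52 and 46 without A2, and 1001 and 1243 without C3.

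**Figure D1:**
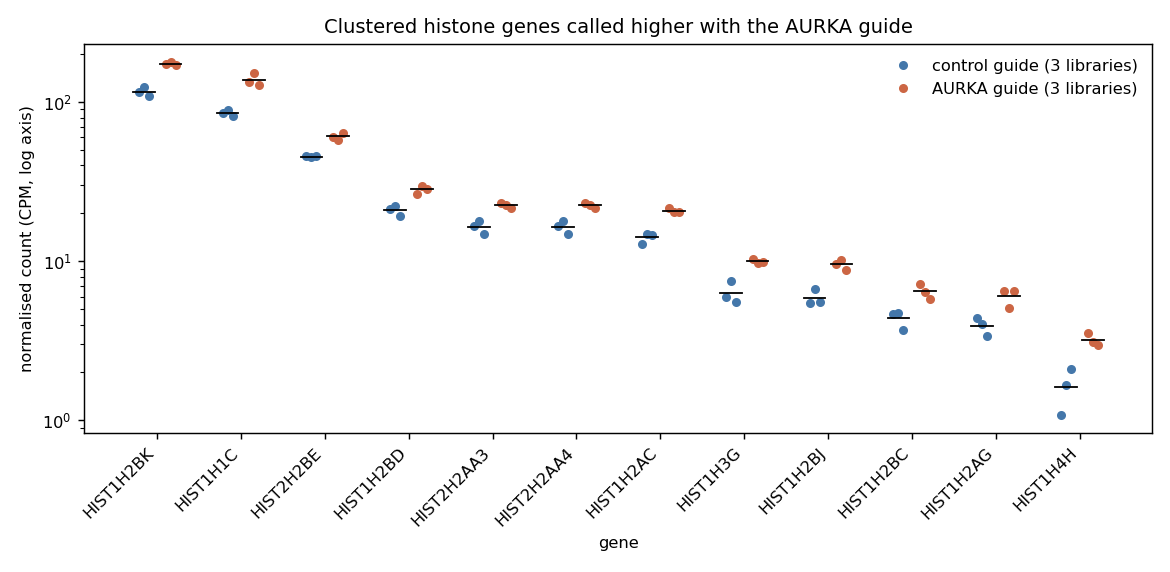
Normalised counts (CPM, log axis) of the 12 histone genes called higher, ordered by mean level, with 1 point per library (blue, control guide; orange, AURKA guide) and black lines at the group means. In each of the 12 genes the 3 AURKA-guide points sit above the 3 control points; HIST2H2AA3 and HIST2H2AA4 have the same values because their copies share reads.

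Linker histones were carried almost wholly by HIST1H1C, which encodes histone H1.2 (gene ID 3006). Its level was 86.0, 89.4 and 82.3 CPM in C1 to C3 and 135, 152 and 129 CPM in A1 to A3. The groups did not overlap, and A2 was the highest library. The log2 fold change was 0.69 ± 0.06 (SE; 1.61-fold), with an adjusted p of 1.69e-05, and the adjusted p stayed between 3.46e-08 and 0.000636 without any 1 library. The expected counts of HIST1H1C were whole in every library, as they would be without shared reads, though whole values alone do not show that no read was shared. The other tested linker gene, HIST1H1E (H1.4), was at 0.649, 0.343 and 0.752 CPM in the controls and 0.547, 0.763 and 0.488 CPM with the AURKA guide. These groups overlapped, and the log2 fold change was 0.03 ± 0.37 (adjusted p = 0.976), a range that includes the change of HIST1H1C within 2 standard errors. HIST1H1D (H1.3) averaged 0.253 CPM and was not tested. HIST1H1A and HIST1H1T, the testis-specific form, had 1 read each.

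Among H2A genes, HIST2H2AA3 and HIST2H2AA4 are copies with the same reported counts in every library, so they are 1 measurement. Each was at 16.58, 17.99 and 14.80 CPM in the controls and 23.3, 22.6 and 21.7 CPM with the AURKA guide. The log2 fold change was 0.45 ± 0.08 (adjusted p = 0.00663), and without A2 the adjusted p was 0.0623. With such copies summed, 11 genes were called in place of 12. HIST1H2AC was at 12.8, 14.9 and 14.7 CPM in the controls and 21.5, 20.5 and 20.3 CPM with the guide, with no overlap. It rose by 0.56 ± 0.08 (adjusted p = 0.00133). HIST1H2AG, at lower read counts, was at 4.41, 4.05 and 3.37 against 6.51, 5.11 and 6.50 CPM. It rose by 0.61 ± 0.15 (adjusted p = 0.0388), and the adjusted p was 0.0719 without C1, 0.15 without A1, 0.056 without A2 and 0.232 without A3.

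The other tested H2A genes were not called. HIST1H2AM, at 3.37, 3.12 and 3.48 CPM in the controls, was at 3.80, 3.88 and 4.28 CPM with the guide, so its groups did not overlap, but its log2 fold change was 0.26 ± 0.14 (adjusted p = 0.402). HIST1H2AI was at 0.20 ± 0.20 and HIST2H2AC at 0.07 ± 0.19 on the log2 scale. HIST1H2AK had the lowest log2 fold change of the 33 genes, -0.52 ± 0.35 (adjusted p = 0.483), at 0.993, 0.533 and 0.841 CPM in the controls and 0.601, 0.657 and 0.397 CPM with the guide, and these groups overlapped.

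H2B genes held the largest part of the histone reads, and 1 of them, HIST1H2BK (gene ID 85236), more than any other gene of the family. It was at 115, 125 and 110 CPM in C1 to C3 and at 173, 180 and 170 CPM in A1 to A3. The gap between the groups was wider than the spread within either. The log2 fold change was 0.58 ± 0.06 (1.497-fold, adjusted p = 2.27e-05). HIST2H2BE was at 45.6, 45.3 and 45.7 CPM in the controls, which were nearly equal, and at 60.8, 57.9 and 63.8 CPM with the guide. It rose by 0.42 ± 0.06 (adjusted p = 0.00113), the smallest change among the called genes.

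HIST1H2BJ was at 5.44, 6.72 and 5.56 CPM in the controls and 9.68, 10.2 and 8.82 CPM with the guide. The groups did not overlap, and the log2 fold change was 0.69 ± 0.11 (adjusted p = 0.00355). HIST1H2BD was at 21.3, 22.3 and 19.2 against 26.5, 29.7 and 28.5 CPM, a log2 fold change of 0.43 ± 0.08 (adjusted p = 0.00605). Its adjusted p was 0.074 without A2 and 0.0522 without A3. HIST1H2BC, at 4.68, 4.75 and 3.71 against 7.23, 6.38 and 5.82 CPM, rose by 0.56 ± 0.14 (adjusted p = 0.0445). Its adjusted p was 0.116 without C1, 0.184 without A1, 0.179 without A2 and 0.0855 without A3.

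Of the H2B genes that were not called, HIST1H2BO had groups that did not overlap, at 1.22, 1.89 and 2.27 CPM in the controls and 2.77, 2.74 and 2.92 CPM with the guide. Its log2 fold change of 0.65 ± 0.21 had an adjusted p of 0.139. HIST1H2BH (0.33 ± 0.37), HIST1H2BN (0.10 ± 0.20) and HIST2H2BF (0.02 ± 0.21) had overlapping groups. In HIST1H2BH the library C3, at 0.322 CPM, stood below the other controls at 1.62 and 1.54 CPM, and without C3 its log2 fold change was -0.13.

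**Figure D2:**
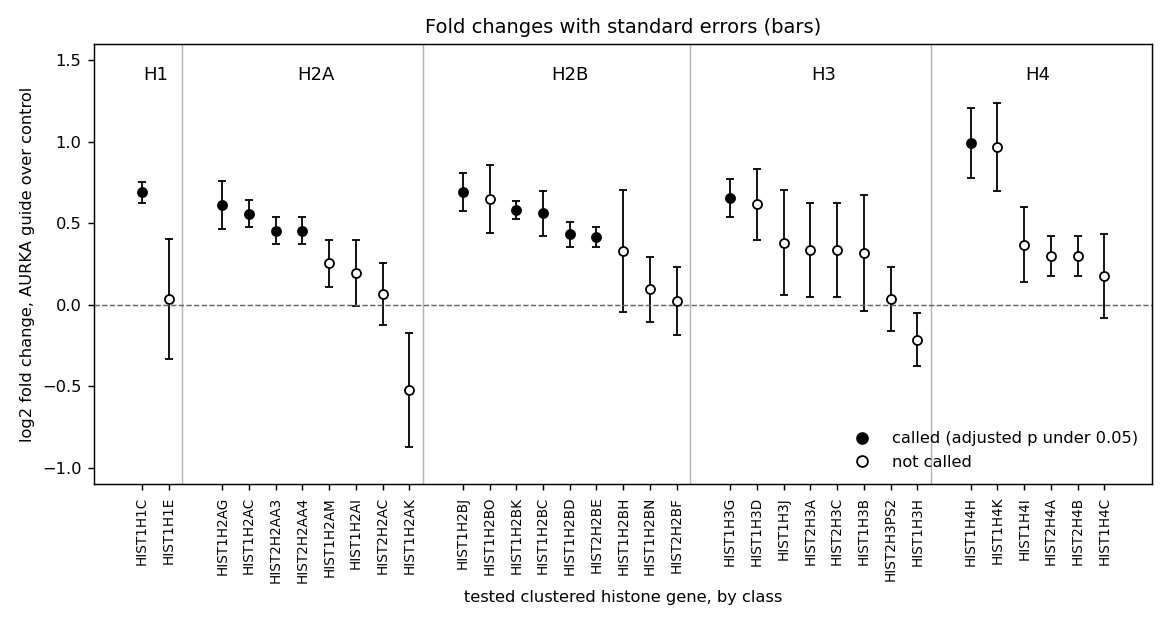
Log2 fold changes (AURKA guide over control) of the 33 tested histone genes, grouped by class; bars are standard errors, filled points are called at an adjusted p under 0.05 and open points are not. All filled points lie between 0.42 and 0.99, and only HIST1H2AK and HIST1H3H lie below 0.

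In class H3, HIST1H3G was called (gene ID 8355). It was at 5.95, 7.54 and 5.59 CPM in the controls and 10.3, 9.81 and 9.87 CPM with the guide, and its counts were whole in every library. It rose by 0.66 ± 0.12 (adjusted p = 0.00546), with an adjusted p of 0.0506 without C1. HIST1H3D was at 1.05, 1.35 and 1.61 against 2.02, 2.13 and 1.98 CPM without overlap, and its log2 fold change of 0.62 ± 0.22 was not called (adjusted p = 0.184). HIST1H3H, the H3 gene with the next most reads, was at 3.30, 3.20 and 3.97 CPM in the controls and 3.01, 3.32 and 2.71 CPM with the guide. Its log2 fold change was -0.21 ± 0.16 (adjusted p = 0.542), so HIST1H3G and HIST1H3H, which encode the same kind of H3 and sit in the same cluster, had values of opposite sign; that difference between genes was not tested. HIST2H3PS2 (0.04 ± 0.19), HIST1H3J (0.38 ± 0.32), HIST1H3B (0.32 ± 0.35) and the copies HIST2H3A and HIST2H3C, which share their counts (0.33 ± 0.29), were not called. HIST2H3D, untested, had no read in the controls and 0.140, 0.192 and 0.191 CPM with the guide, a total of 9.61 counts.

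In class H4, HIST1H4H had the largest log2 fold change of the 33 genes, 0.99 ± 0.22 (1.99-fold, adjusted p = 0.0214). It rests on few reads: 1.08, 1.66 and 2.09 CPM in the controls and 3.56, 3.11 and 2.98 CPM with the guide, from 265 counts in all 6 libraries. The groups did not overlap, and the adjusted p was 0.136 without C1, 0.0928 without A1, 0.108 without A2 and 0.0781 without A3. HIST1H4K had a similar log2 fold change, 0.97 ± 0.27, at 1.30, 0.802 and 0.591 against 1.81, 1.74 and 1.73 CPM, and was not called (adjusted p = 0.0857). With a correction for GC content its adjusted p was 0.0134. In C2, HIST1H4K had 14.04 counts and HIST1H4J 12.96. In every other library the HIST1H4K count was whole and HIST1H4J had none. Reads of HIST1H4K may therefore have been assigned to HIST1H4J in C2. That would lower the HIST1H4K level there and raise its log2 fold change, which was not computed with both genes summed. The copies HIST2H4A and HIST2H4B, 1 measurement with the most reads of the class, were at 5.73, 5.91 and 5.16 against 7.71, 6.92 and 6.04 CPM. Their groups did not overlap, and the log2 fold change of 0.30 ± 0.12 was not called (adjusted p = 0.247). HIST1H4I (0.37 ± 0.23) and HIST1H4C (0.18 ± 0.26) had overlapping groups.

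The 9 histone genes with the highest mean CPM were all called. Below them the order was mixed: called genes had between 2.41 and 145 CPM and the other tested genes between 0.557 and 6.25 CPM, so that HIST1H4H at 2.41 CPM was called and HIST2H4A at 6.25 CPM was not. Called genes had standard errors between 0.0558 and 0.215 on the log2 scale (median 0.083), and the 21 tested genes that were not called had standard errors between 0.124 and 0.375 (median 0.22). Of these 21, 19 had a log2 fold change above 0, and 6 had AURKA-guide libraries all above the controls; their median log2 fold change was 0.30, against 0.57 in the called genes. An adjusted p that misses the threshold therefore does not show that these genes were unchanged. Per length, on the authors' FPKM scale, the highest mean levels were those of HIST1H2BK (178 FPKM) and HIST1H1C (158 FPKM), followed by HIST2H2AA3 (38.4 FPKM), HIST1H2AC (33.6 FPKM), HIST1H2BD (31.7 FPKM) and HIST2H2BE (23.9 FPKM).

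Summed over all 63 genes, histone reads were at 380, 404 and 364 CPM in C1 to C3 and at 554, 572 and 541 CPM in A1 to A3, a ratio of 1.45 between the group means. The ratio was 1.61 for H1, 1.36 for H2A, 1.44 for H2B, 1.30 for H3 and 1.32 for H4. In each class all 3 AURKA-guide libraries were above all 3 controls. The sums lean on single genes: HIST1H2BK and HIST1H1C together held between 52.6% and 58.0% of the histone reads in each library, and without both the ratio was 1.35. HIST1H1C held between 98.6% and 99.6% of the H1 reads, and without it the log2 ratio of the remaining H1 genes was 0.09 against 0.68. Without HIST1H3G the log2 ratio of H3 was 0.16 against 0.38, and without HIST1H2BK that of H2B was 0.44 against 0.52. Without both copies HIST2H4A and HIST2H4B, the H4 log2 ratio was 0.56 against 0.40, and without both HIST2H2AA3 and HIST2H2AA4 that of H2A was 0.43 against 0.44; these 2 values were added after seeing the data.

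**Figure D3:**
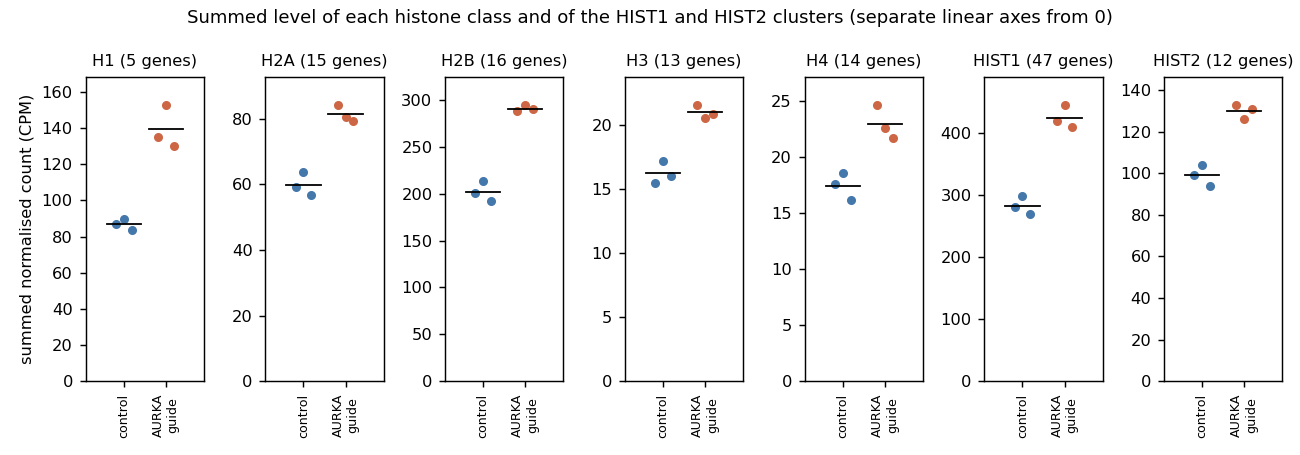
Summed normalised count (CPM) of the genes of each class and of the HIST1 and HIST2 clusters, 1 point per library (blue, control; orange, AURKA guide) with black lines at the group means; each panel has its own linear axis from 0. In all 7 panels the AURKA-guide libraries lie above the controls, with ratios of the means between 1.30 in H3 and 1.61 in H1.

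The make-up of the histone reads differed slightly between the groups. The H1 share was 22.9%, 22.2% and 22.9% in the controls and 24.4%, 26.8% and 23.9% with the AURKA guide. The H2A share was 15.6%, 15.8% and 15.6% against 15.2%, 14.1% and 14.7%. The H3 share was 4.09%, 4.26% and 4.38% against 3.91%, 3.60% and 3.87%. In these 3 classes the groups did not overlap, while the H2B share, between 52.7% and 53.1% in the controls and between 51.6% and 53.5% with the guide, overlapped. The H4 share was 4.62%, 4.60% and 4.45% against 4.45%, 3.95% and 4.0%, so its groups met at 4.45%. By cluster, HIST1 genes summed to 283 ± 15 CPM (SD, n = 3) in the controls and 425 ± 18 CPM with the guide, a ratio of 1.502, and HIST2 genes to 99.1 ± 5.2 and 129.8 ± 3.7 CPM, a ratio of 1.31. The HIST2 share was between 25.7% and 26.1% in the controls and between 22.0% and 24.1% with the guide, without overlap. The 3 HIST3 genes reached at most 0.663 CPM in sum in any library, and the HIST4 gene at most 0.434 CPM. Shares of one total move together and lean on the same 2 genes, and no test was made of them.

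Neighbours that share a promoter stretch were called together in 2 of the 5 pairs with both genes tested. This count was 0 of 5 without C1, A1, A2 or A3 and with the DESeq2 Wald test, since HIST1H2AG and HIST1H2BC then missed the threshold. In HIST1H2BJ and HIST1H2AG, whose shared stretch is printed above, both genes were called, at 0.69 and 0.61 on the log2 scale. In HIST1H2BC and HIST1H2AC both were called, at 0.56 each. In the third printed pair HIST2H2BE was called at 0.42 and its neighbour HIST2H2AC, at 2.03, 2.69 and 1.97 CPM in the controls and 2.27, 2.50 and 2.23 CPM with the guide, was at 0.07 (adjusted p = 0.893) with overlapping groups. The levels per length within that pair also differed: HIST2H2BE had 23.9 FPKM and HIST2H2AC 5.59 FPKM. The tested pair HIST1H2AM and HIST1H2BO was at 0.26 and 0.65, and HIST1H2AK and HIST1H2BN at -0.52 and 0.10, none of them called. In the other 6 pairs at least 1 gene had too few reads to be tested. The difference between neighbours was not tested.

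**Figure D4:**
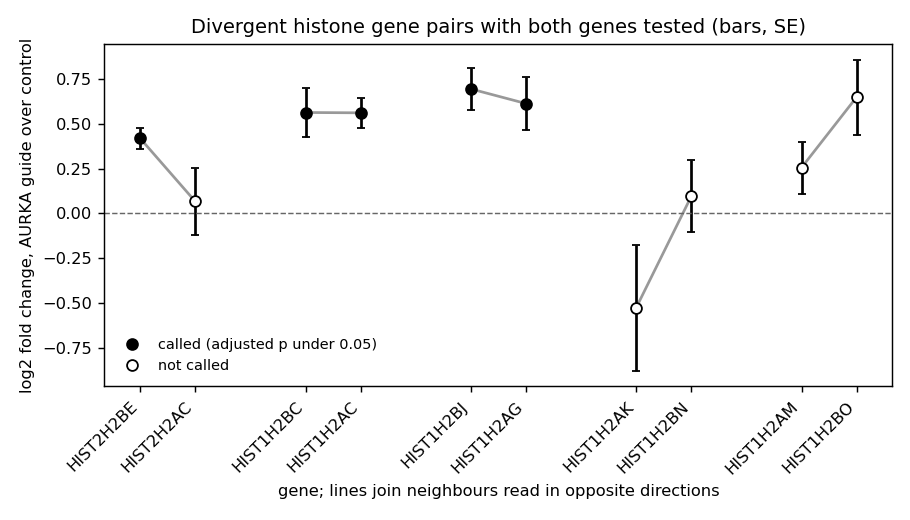
Log2 fold changes with standard errors (bars) for the 5 divergent pairs in which both genes were tested; grey lines join the neighbours, filled points are called. Both genes are filled in HIST1H2BC with HIST1H2AC and in HIST1H2BJ with HIST1H2AG, and HIST2H2BE is filled alone.

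Transcript counts were used to see which mRNA form carried the reads of genes with several. For HIST1H2BD the table gives a short form (NM_021063.3, 459 bases as implied by its count and FPKM) and longer forms. In GENCODE the short form ends 39 bases after the stem-loop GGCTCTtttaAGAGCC, and the transcript of NM_138720.2 does not hold the stem-loop. NM_138720.2, with an implied 792 bases, had 359, 356 and 329 counts in the controls and 464, 466 and 506 with the guide, between 85.6% and 96.0% of the gene's reads in each library. NM_021063.3 had 12.2, 17.0 and 16.1 counts in the controls and 0, 54.2 and 0 with the guide, so its estimate was erratic and at most 9.95% of the gene's reads. For HIST1H2BK the longer form NM_080593.2 (818 implied bases) held between 99.1% and 99.7% of the reads, and the short form NM_001312653.1 between 0.253% and 0.905%. HIST2H2BE has 1 form of 2228 implied bases, whose GENCODE transcript runs on for 1729 bases after the stem-loop. HIST1H1C had an implied 709 bases, and HIST1H2BJ, HIST1H2AC, HIST1H3G and HIST1H4H between 344 and 519.

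In the transcript table, 0 of the 36 tested histone transcripts were called with edgeR, where 0.00227% of 43979 transcripts (1) was called. HIST1H1C has the same counts in the gene and transcript tables. Its edgeR p was 1.16e-08 in the gene fit and 0.000202 in the transcript fit (adjusted p = 0.317). The absence of calls therefore depends on the fit and is not separate evidence from the counts. At an unadjusted p under 0.05 there were 9, all higher, against 3.76% of all transcripts. The DESeq2 Wald test called 3 of the histone transcripts and 0.948% of all. The authors' deposited gene comparison lists 231 genes (1.31% of the gene table), of which 9 are histone genes, all with a positive log2 fold change: HIST1H1C, HIST1H2AC, HIST1H2BD, HIST1H2BJ, HIST1H2BK, HIST1H3G, HIST2H2AA3, HIST2H2AA4 and HIST2H2BE. In the authors' deposited transcript comparison for the AURKA guide, 1.55% of transcripts had a q under 0.05, and 3 histone transcripts did: HIST1H1C (log2 fold change 0.69), HIST1H2BK (0.59) and HIST2H2BE (0.42). The authors' deposited table also compares an NSD2 guide with control; its libraries were not analysed here. There 1.78% of transcripts had a q under 0.05, among them HIST1H1C (0.57), HIST1H2BD NM_138720.2 (0.62), HIST1H2BK (0.41) and HIST2H2BE (0.31). Both columns of the authors' deposited table name the same control, so the values of the 2 guides are not independent.

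Genes that act on histone mRNA or histone protein were read from lists beside the family. Of 43 genes for histone mRNA transcription and processing, all tested, 0 were called with edgeR or DESeq2 in either direction. At an unadjusted p under 0.05 in edgeR, 5 were higher and 3 lower, against 7.62% and 8.61% of all tested genes. Their median log2 fold change was 0.01. SLBP, which binds the stem-loop, was at 191, 196 and 201 CPM in the controls and 202, 210 and 201 CPM with the guide (0.06 ± 0.05, adjusted p = 0.548). NPAT, the coactivator of histone gene transcription, was at 0.12 ± 0.06 (adjusted p = 0.363). The smallest p-values were those of ZNF473 (0.26 ± 0.08, adjusted p = 0.103) and LSM10 (-0.22 ± 0.07, adjusted p = 0.138), both components of the histone 3′ processing machinery, and of the cyclin CCNE2 (0.24 ± 0.08, adjusted p = 0.156).

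Of 31 histone chaperone and deposition genes, 1 was called higher and 0 lower, against 0.989% and 1.13% of all tested genes. Without adjustment 5 were higher and 0 lower, against 7.62% and 8.61%. The called gene was HJURP, the chaperone of the centromeric histone CENP-A, at 81.2, 85.1 and 82.1 CPM in the controls and 96.4, 98.0 and 93.2 CPM with the guide (0.21 ± 0.05, adjusted p = 0.0485). The next smallest p-values were those of ATRX (0.24 ± 0.08, adjusted p = 0.133), which deposits a replacement H3 at repeats, and the nucleolar chaperone NPM1 (0.15 ± 0.06, adjusted p = 0.195). Replacement histone genes lie outside the clusters, and most, though not all, are made through the cell cycle. Of the 10 tested, 0 were called by either tool, with 1 higher and 1 lower without adjustment, and the median was 0.01. Of those with at least 5 CPM the smallest p-values were those of H2AFJ (-0.17 ± 0.06, adjusted p = 0.198), H1FX (-0.08 ± 0.07, adjusted p = 0.593) and H2AFV (0.04 ± 0.05, adjusted p = 0.732); with the GC correction H1FX was at 0.066 and H2AFV at -0.001. Their summed level was between 2341 and 2460 CPM in the controls and between 2339 and 2403 CPM with the guide, which overlap, unlike the sums of the clustered genes. Of 30 S phase genes 0 were called with edgeR and 2 with DESeq2, both higher. Without adjustment 11 were higher and 0 lower, against 7.62% and 8.61% of all tested genes, and the median was 0.08. MCM6 (0.17 ± 0.05, adjusted p = 0.0911), RRM1 (0.17 ± 0.05, adjusted p = 0.106) and MCM4 (0.15 ± 0.05, adjusted p = 0.107) had the smallest p. The S phase genes summed to between 5009 and 5043 CPM in the controls and between 5320 and 5384 CPM with the guide, so they were higher in all 3 libraries by a smaller ratio than the histone genes; their part in the histone result was not tested.

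Of the 15 other genes that lie inside the HIST1 span by RefSeq order, 13 were tested. Their log2 fold changes lay between -1.107 and 0.381, with a median of 0.08. Of the 13 genes, 2 were called higher and 0 lower, against 0.989% and 1.13% of all tested genes. The called genes were the butyrophilins BTN2A2 (0.38 ± 0.06, adjusted p = 0.00203), at 45.9, 45.8 and 43.2 against 57.2, 58.6 and 59.9 CPM, and BTN3A2 (0.27 ± 0.06, adjusted p = 0.0214), whose adjusted p was between 0.0607 and 0.159 without C1, A1, A2 or A3. HMGN4, a chromatin protein gene in the same span, was at -0.01 ± 0.06 (adjusted p = 0.902). The other 10 tested genes of the span were not called either.

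GC content differed between the family and other genes. The histone genes had a median GC content of 57.7% against 48.5% over all tested genes, and the called histone genes 47.8%. GC content was that of each gene's longest coding GENCODE transcript, which can differ from the form that was counted. That transcript has 2411 bases in HIST1H3G against 439 implied, and 381 in HIST1H2BK against 814. The copies HIST2H4A and HIST2H4B, with the same counts, had 57.3% and 51.0%. The GC values and the correction below therefore depend on the transcript taken. A trend on GC content was fitted to the deviations of genes in each library. Its fitted value was averaged over the 50 genes nearest the median GC content of the histone genes. On the log2 scale it was 0.041, 0.087 and -0.044 in C1 to C3 and 0.002, -0.036 and -0.050 in A1 to A3. With a correction for GC content 14 histone genes were called higher and 0 lower, with a median log2 fold change of 0.41. Read sharing was a further limit: among the 61 genes with any count, 23 had whole counts in every library (within 0.005), and of the 12 called genes only HIST1H1C, HIST1H3G and HIST1H4H did. The counts of the other 9 include reads that were divided among similar genes or transcripts by estimation.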

How the data were processed

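RNA-seq libraries of LP-1 cells (3 with a guide against AURKA, 3 with a non-targeting guide) were sequenced on the BGISEQ-500, per the labels' protocols. BWA, Bowtie2, RSEM and the build hg19 are named in the submitters' processing notes, without versions or roles. Of RNA selection and strand nothing is stated in those notes or the labels. Deposited by the authors were expected counts per gene and per transcript, which RSEM estimates and which need not be whole, and FPKM values, both per the file headers. The authors' deposited comparison tables hold log2 fold changes and q-values; their file headers name DESeq2.

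Expected counts were rounded, then fitted in edgeR 4.0.16 (R 4.3.3; filterByExpr, TMM, quasi-likelihood F test, Benjamini-Hochberg adjustment over all genes or transcripts tested, threshold 0.05). CPM values use TMM-scaled library sizes, and 1 CPM is about 18 reads. Reads carry no molecular identifiers, so counts are not independent molecules. Standard errors come from the F statistic. Pairs of replicates differed by more than counting noise, with a chi-square per gene between 2.24 and 10.5. The largest values were those of C3, at 5.22 with C1 and 10.5 with C2, against 2.24 to 2.96 in the other pairs. The fit was tested on simulated data. Implied transcript lengths come from the ratio of count to FPKM. GC content and stem-loops were taken from GENCODE release 29 and promoters from RefSeq (GRCh38.p14), which is another build than the authors' hg19, so no coordinates of the measured features are given.

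The histone genes, the other lists and the tests were chosen with earlier results of these data known. Named genes are AURKA, every histone gene called, the 3 with the highest mean CPM in each class and the 5 nearest the threshold. Divergent neighbours of called genes are named where both genes had a promoter window. In each list on histone mRNA, chaperones, replacement histones and S phase, the 3 genes of smallest p with at least 5 CPM are named. Further genes were named after their values were seen. Alternatives were each library left out, the replicate number as a block, other scalings and filters, the DESeq2 1.42.0 Wald test, limma 3.58.1 on log2(FPKM + 1) or log2(FPKM + 0.1), and offsets from a natural spline (5 degrees of freedom) in GC content, alone or with length. Summing identical copies, class sums without both copies and the count of pairs under each setting were added after seeing the data.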

Additional observations from a re-analysis of the deposited data

How the results depend on the processing

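The count of histone genes called higher (12) was between 6 and 14 in fits without 1 library, 12 with the replicate number as a block, 12 with DESeq2 size factors, total count scaling, without a filter or above a mean of 1 CPM, 9 with the DESeq2 Wald test, 14 with the GC correction with or without the block, 13 with GC and length, and 13 or 11 with limma on FPKM; in all of these 0 were called lower. Calls over all genes moved more. They were between 52 and 1001 higher and between 46 and 1243 lower without 1 library, 208 and 254 with the replicate block, 431 and 426 with the GC correction, 497 and 499 with GC and length, and 500 and 520 with the replicate block and the GC correction, while limma on log2(FPKM + 0.1) called 84 higher. The cause was not tested. Same-numbered libraries had correlations of 0.05, -0.10 and 0.10 between their deviations. Of the 3 AURKA-guide libraries, 2 correlated best with a control of another number. These deviations were centred within groups of 3 libraries, so they cannot decide whether the numbers pair the libraries.

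Over single genes, 830 values kept their direction and side of the threshold, 46 gained a call, 41 lost one and 21 changed sign, the last in 10 genes that were not called. Without 1 library the log2 fold change ran from -0.22 to 0.26 in HIST1H1E, -0.016 to 0.214 in HIST2H2AC, -0.13 to 0.66 in HIST1H2BH, -0.026 to 0.246 in HIST1H2BN, -0.16 to 0.23 in HIST2H2BF, -0.077 to 0.149 in HIST2H3PS2, -0.053 to 0.394 in HIST1H4C, -0.167 to 0.008 in H1FX and -0.039 to 0.033 in HMGN4. H1FX was at 0.066 with the GC correction, 0.081 with GC and length and 0.066 with the replicate block and GC, and H2AFV at -0.001, -0.003 and -0.002. Without the gene of highest CPM the log2 ratio of the class sum was 0.094 in H1, 0.44 in H2B and 0.16 in H3, and without both identical copies 0.56 in H4. Pairs with both genes called (2) were between 0 and 2 without 1 library and 0 with the DESeq2 Wald test. Histone transcripts called were 3 with the DESeq2 Wald test and 0 under the other settings. Depth limits the genes below about 2 CPM, whose standard errors were 0.220 or more.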
